A study of Bos taurus with 60 samples.

Results

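Liver miRNAs were compared between 2 half-sib families of Charolais steers, the 8 steers whose label names sire C199401469 and the 4 steers whose label names sire C201000050. Members were chosen by the sire label alone, whatever the feed efficiency of the steer, so 12 of the 60 steers in the series and 12 of its 20 Charolais steers enter the comparison. The whole series holds 20 Angus, 20 Charolais and 20 Kinsella Composite (KC) steers, with 1 small RNA library from the liver of each. All steers were born and raised at 1 ranch, castrated, and given the same barley-based finishing diet with rumensin pellets before slaughter, and the tissue was taken from the right lobe. Of the sire C199401469 family, 4 steers are labelled high-RFI, 1 low-RFI and 3 carry no RFI group. RFI, residual feed intake, is the feed an animal eats beyond what its size and growth predict, so a low value marks an efficient animal. Of the sire C201000050 family, 2 steers are labelled low-RFI, 2 carry no group and none is high-RFI, so family and RFI group are partly tied. Dams, the age of single animals and the pool in which a library was sequenced are not in the labels, so a family cannot be told apart from a dam, a pool or another unlabelled circumstance that it shares. Each family stands for 1 sire.

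A miRNA is a short RNA that lowers the output of messenger RNAs whose 3′ ends pair with its seed, bases 2 to 8 from its 5′ end. miRNAs that share a seed are taken to share many targets. In liver, most miRNA comes from hepatocytes, with further contributions from bile duct cells, stellate cells, vessel lining and the blood that the tissue holds. Several miRNA genes lie within the introns of protein-coding genes or in clusters read as 1 transcript. In bulk liver, fewer cells of a type and less RNA per cell cannot be told apart.

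The mature sequences below belong to miRNAs on which the family comparison turned, with the seed in capitals, and are the miRBase sequences listed by the study. They are grouped to show which of them could share reads or targets.
bta-miR-144: uACAGUAUagaugauguacuag
bta-miR-451: aAACCGUUaccauuacugaguuu
bta-miR-495: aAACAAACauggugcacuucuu
bta-miR-2284c: aAAAAGUUcguuuugguuuu
bta-miR-2285cp: aAAAGUUCguuuagguuuuucu
bta-miR-10a: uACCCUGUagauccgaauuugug
bta-miR-10b: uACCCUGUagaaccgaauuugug
The miR-144 and miR-451 genes lie within 10 kb of each other (RefSeq, assembly ARS-UCD2.0), but their seeds differ. The miR-2284c and miR-2285cp sequences align over 19 bases with 1 mismatch once the start is shifted by 1 base, so their reads are hard to tell apart. The miR-10a and miR-10b sequences align over 23 bases with 1 mismatch and have the same seed.

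The 12 libraries held 2237959 to 6019099 counts after counts from several precursors of 1 mature miRNA were averaged. Values are given in CPM, counts scaled by library size and TMM factor to a common total, and a floor of 3 counts per library corresponds to 0.498 to 1.34 CPM of the library total. The floor covers counting error only. In all, 395 of 1030 miRNAs reached 1 CPM in at least 4 of the 12 steers and were tested. No libraries were identical. Hepatocyte markers (miR-122, miR-885, miR-192 and miR-194) summed to 209500 to 298900 CPM in the sire C199401469 family. In the sire C201000050 family they summed to 201600 to 265100 CPM. This sum was mostly miR-192, with a mean of 234600 CPM over the 12 steers. miR-122 was at 6553 CPM or more in all 12, so each library carried a liver signature. In sire C201000050 replicate 2 miR-122 was 18284 CPM, where the other steers had 6553 to 12294 CPM. miR-885 was 15.29 CPM there, under the lowest other steer at 18.53 CPM. The log2 fold change of miR-122, sire C201000050 over sire C199401469, was 0.24 (SE 0.24) and -0.23 (SE 0.17) without that library.

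One library stood apart, that of sire C201000050 replicate 2. Its TMM factor was 0.663 against 0.977 to 1.14 in the other 11 libraries, and 69 of the 395 miRNAs lay more than 2-fold from the median of the other 11 steers. The same count was 50 in sire C199401469 replicate 1, which was also the shallowest library, and 11 to 22 in the remaining 10. In sire C201000050 replicate 2, miR-10b reached 53030 CPM where the other 11 steers had 1666 to 3778 CPM. This steer also had the highest level of all 60 steers for miR-10a, miR-143, miR-99a-5p, miR-100, miR-379, miR-7 and miR-30a-5p. Most results of the family comparison are therefore given with and without this library. Its cause was not tested.

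The first question was whether any liver miRNA differed between the steers of the 2 sires. With all 12 steers, 7 miRNAs (1.77% of those tested) differed at an adjusted p-value under 0.05 in edgeR's quasi-likelihood test, 5 higher and 2 lower in the sire C201000050 family. Higher were miR-486 and miR-144, both miRNAs of red cell precursors, the muscle miRNA miR-133a, miR-495 of an imprinted cluster, and miR-10b of the HOX gene region. Lower were miR-2284c and miR-2285cp, members of 2 large ruminant families, which reached 1 CPM only in steers of sire C199401469. All 7 had the same adjusted p-value of 0.045. Without sire C201000050 replicate 2, 0 of 394 miRNAs passed in edgeR, the smallest adjusted p-value was 0.0651, and 25 (6.35%) had an unadjusted p-value under 0.05. On the same 11 steers DESeq2 called 4 (miR-133a, miR-144, miR-152 and miR-486), edgeR's likelihood-ratio test 7 and limma voom 1. By DESeq2 with all 12 steers 5 miRNAs passed, which were miR-133a, miR-144, miR-486, miR-495 and miR-152, while its outlier rule gave no p-value for miR-10b.

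At an unadjusted p-value under 0.05, 53 miRNAs (13.4%) differed with all 12 steers, of which 39 (9.87%) were higher and 14 (3.54%) lower in the sire C201000050 family. With the added demand of a fold change above 1.5, which is the study's own rule, 39 (9.87%) remained, 29 higher and 10 lower. Of the 53, only 16 also had an unadjusted p-value under 0.05 without sire C201000050 replicate 2, 9 higher and 7 lower. Of the 37 that did not, 30 were higher, and for 24 the level in replicate 2 was more than 2-fold above the median of the other 11 steers. The excess of higher over lower calls also depended on the scaling. With library totals only, 19 miRNAs were higher and 20 lower, and the median log2 fold change of all miRNAs moved from 0.02 to -0.11.

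**Figure D1:**
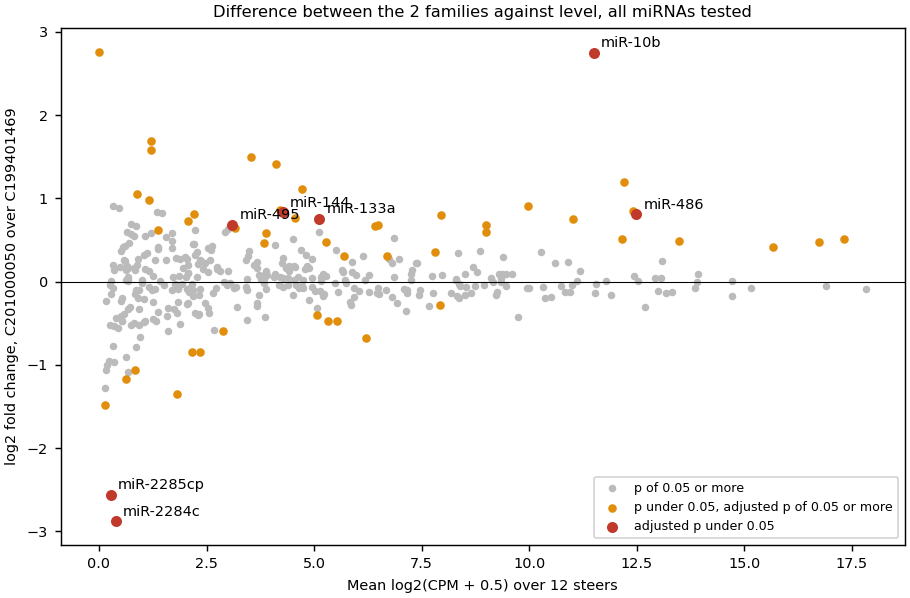
The horizontal axis is the mean log2(CPM + 0.5) over the 12 steers and the vertical axis is the log2 fold change of sire C201000050 over sire C199401469, with 1 point for each of the 395 miRNAs. The 7 at an adjusted p-value under 0.05 are named in red, and the 2 lowest points, miR-2284c and miR-2285cp, are among the least abundant miRNAs tested.

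The red cell miRNAs were the only list of which every tested member had an unadjusted p-value under 0.05, 3 of 3 and all higher in the sire C201000050 family. Of all tested miRNAs, 9.87% were higher. miR-486 lies in the gene ANK1, which codes for the ankyrin of the red cell membrane, and miR-144 and miR-451 are made from 1 transcript in developing red cells. The level of miR-486 ran from 3943 to 5717 CPM with a median of 4913 CPM in the sire C199401469 family. In the sire C201000050 family it was 9774, 11162, 5378 and 7658 CPM in replicates 1 to 4. Replicates 1, 2 and 4 lay above all 8 steers of the other family, whereas replicate 3 lay within their range. Mean levels were 8493 ± 2527 CPM (SD, n = 4) and 4843 ± 656 CPM (SD, n = 8), a log2 fold change of 0.81 (SE 0.16, adjusted p-value 0.045 in edgeR). An exact two-sided permutation test over all relabelings of the steers gave p = 0.0121, where 0.00404 is the smallest value it can give.

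miR-144 ran from 13.4 to 22.3 CPM with a median of 15 CPM in the sire C199401469 family and was 37.6, 23.3, 19.1 and 32.6 CPM in the 4 steers of sire C201000050. Only replicate 3 overlapped, by way of 1 steer of the other family, replicate 8, at 22.3 CPM. With library totals only, replicates 2 and 3 were 15.45 and 20.01 CPM, within the 14.36 to 21.93 CPM of the sire C199401469 family. The log2 fold change was 0.83 (SE 0.19, adjusted p-value 0.045 in edgeR, exact permutation p = 0.00808). miR-451, which red cells need to mature, ran from 320 to 667 CPM with a median of 409 CPM, against 1142, 692, 459 and 613 CPM. The families overlapped, and its log2 fold change of 0.68 (SE 0.22) had an adjusted p-value of 0.205 in edgeR. The same steer, sire C201000050 replicate 3, was thus the lowest of its family for all 3 miRNAs.

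Without sire C201000050 replicate 2 all 3 red cell miRNAs kept an unadjusted p-value under 0.05. The log2 fold changes were then 0.63 (SE 0.15) for miR-486, 0.89 (SE 0.20) for miR-144 and 0.68 (SE 0.23) for miR-451, with adjusted p-values of 0.0651, 0.0651 and 0.329 in edgeR. Without the 4 high-RFI steers, which leaves 4 steers against 4, the values were 0.93 (SE 0.21), 0.95 (SE 0.25) and 0.82 (SE 0.25), each with an adjusted p-value of 0.429. The summed level of the 3 ran from 4363 to 6143 CPM in the sire C199401469 family and from 5854 to 11880 CPM in the other. This sum was mostly miR-486, with a mean of 6059 CPM over the 12 steers. The white cell markers miR-142-5p, miR-223, miR-150 and miR-155 summed to 3376 to 4547 CPM and 3186 to 4400 CPM, and 0 of the 4 had an unadjusted p-value under 0.05. Of all tested miRNAs, 13.4% did. The white cell sum was mostly miR-142-5p, with a mean of 3575 CPM over the 12 steers. How much blood each liver sample held was not recorded, and its part in the result was not tested.

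**Figure D2:**
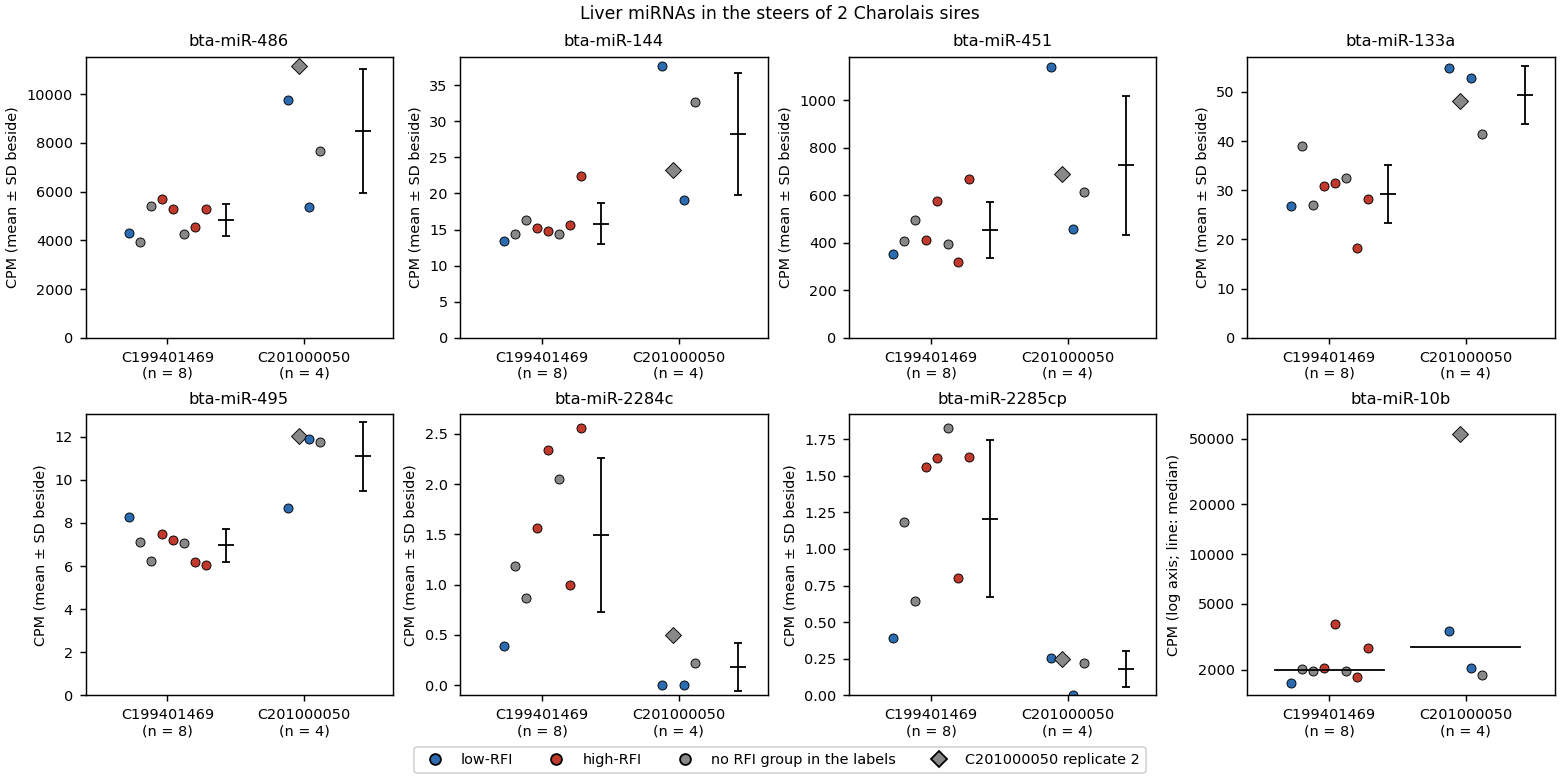
Each point is the CPM of 1 steer, coloured by RFI group, for the 7 called miRNAs and miR-451, with the mean and SD beside the points (a median line for miR-10b, on a log axis). With the TMM scaling shown, no steer of 1 family lies within the range of the other for miR-133a and miR-495. For miR-10b the diamond of sire C201000050 replicate 2 at 53030 CPM stands alone.

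Among muscle miRNAs, miR-133a separated the 2 families completely with TMM scaling, though not with library totals only. Its level was 18.2 to 39.1 CPM with a median of 29.5 CPM in the sire C199401469 family and 54.8, 48.1, 52.8 and 41.5 CPM in the sire C201000050 family. Mean levels were 29.2 ± 5.95 CPM (SD, n = 8) and 49.3 ± 5.9 CPM (SD, n = 4), a log2 fold change of 0.75 (SE 0.17, adjusted p-value 0.045 in edgeR). The exact permutation p on the TMM-scaled values was 0.00404, the smallest it can give. With library totals only, replicate 2 was 31.9 CPM, within the 18.74 to 44.28 CPM of the sire C199401469 family. Without replicate 2 the families still did not overlap, and the log2 fold change was 0.74 (SE 0.20, adjusted p-value 0.119). Across all tested miRNAs, the families did not overlap with TMM scaling for 5 (1.27%). These were miR-133a and miR-495 on the higher side and miR-2285cp, miR-10164-3p and miR-152 on the lower side. For miR-2285cp the counts themselves did overlap, at 1 count in a steer of sire C199401469 and in 3 steers of sire C201000050, and the CPM gap between these steers came from library size alone.

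Levels of muscle miRNAs in liver are low, and miR-133a differs from miR-133b by 1 base in 22 aligned bases, so some reads may be shared. miR-133b itself had a log2 fold change of 0.88 (SE 0.48, unadjusted p-value 0.0873). miR-1, whose gene neighbours a miR-133a gene, ran from 0.601 to 3.15 CPM against 3.84, 10.8, 2.33 and 0.666 CPM. Replicates 1 and 2 lay above the other family, and without replicate 2 the log2 fold change dropped from 1.58 (SE 0.57) to 0.61 (SE 0.55, unadjusted p-value 0.282). Of the 4 muscle miRNAs tested, 2 were higher at an unadjusted p-value under 0.05, and 1 of them without replicate 2. The 4 were miR-1, miR-133a, miR-133b and miR-490. miR-490 went the other way, with a log2 fold change of -0.40 (SE 0.37, unadjusted p-value 0.296 in edgeR). Over all miRNAs 9.87% were higher, and 11 of 394 without replicate 2. The 4 muscle markers were another set, with miR-206 in place of miR-490, and 3 of them were tested. They summed to 20 to 42.4 CPM and 43.7 to 61.9 CPM, of which miR-133a was the main part.

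The imprinted DLK1-DIO3 cluster is read from the chromosome inherited from the dam in mammals, and its miRNAs are made in fetal and stem cells above all. Of 36 members tested, 26 had a positive log2 fold change, 5 were higher at an unadjusted p-value under 0.05 and 0 lower. The median was 0.20 against 0.02 over all 395 miRNAs, and 13.9% of members were higher against 9.87% of all. miR-495 was 6.05 to 8.26 CPM with a median of 7.09 CPM in the sire C199401469 family and 8.71, 12, 11.9 and 11.8 CPM in the other. With TMM scaling its families did not overlap, although replicate 1 of sire C201000050 came near the highest steer of sire C199401469. With library totals only, replicates 1 and 2 were 8.507 and 7.975 CPM, within the 5.939 to 9.384 CPM of the sire C199401469 family. The log2 fold change was 0.68 (SE 0.16, adjusted p-value 0.045 in edgeR, exact permutation p = 0.00404).

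miR-127, the most abundant member tested and placed within RTL1, a gene it silences, ran from 3336 to 5262 CPM against 3726, 7593, 7535 and 4869 CPM. Replicates 2 and 3 were clear of the other family and replicates 1 and 4 were not. The log2 fold change was 0.51 (SE 0.17, adjusted p-value 0.208). miR-409a ran from 8.65 to 36.2 CPM against 21.5, 93, 46.8 and 30.4 CPM, and miR-379 from 10.8 to 18.5 CPM against 11.3, 113.6, 21.2 and 9.98 CPM. For both the highest steer was replicate 2. Without it, 1 of the 36 members was higher at an unadjusted p-value under 0.05, where 11 of all 394 miRNAs were higher. That member was miR-495 (log2 0.62, SE 0.19, adjusted p-value 0.24), and the list median was 0.10. The log2 fold change of miR-379 then was -0.06 (SE 0.24).

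The ruminant families miR-2284 and miR-2285 hold many near-identical copies, few of which have a known role. miR-2284c gave 1 to 13 counts per steer in the sire C199401469 family and 0, 2, 0 and 1 counts in the sire C201000050 family. miR-2285cp gave 1 to 9 counts and 1, 1, 0 and 1 counts. All 4 steers of sire C201000050 were below the floor of 3 counts for both, while 7 of the 8 steers of the other family reached it for each. The fitted log2 fold changes were -2.88 (SE 0.69) for miR-2284c and -2.56 (SE 0.60) for miR-2285cp, both with an adjusted p-value of 0.045 in edgeR, and at such counts they depend on the small prior count of the fit. Both passed the filter of 1 CPM in 4 steers only through sire C199401469, since the other family had at most 0.332 and 0.250 CPM of the library total. The filter thus favoured this direction, and the p-values do not allow for it. Without a filter on low counts, 0 miRNAs were lower at an adjusted p-value under 0.05 in edgeR.

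Over the pooled libraries of each family, miR-2284c had 53 and 3 counts, a ratio of rates of 0.105 with an exact 95% interval of 0.0209 to 0.323. miR-2285cp had 42 and 3 counts, a ratio of 0.132 (0.0262 to 0.414). These intervals cover counting error only, and do not allow for the filter that let both in through the sire C199401469 family. The 2 are not independent measurements. Their counts were equal in 5 of the 12 steers and within 2 counts of each other in 10, and whether the same reads were counted for both was not tested. Without replicate 2 the log2 fold changes were -3.84 (SE 0.86) and -2.73 (SE 0.72), with adjusted p-values of 0.0651 and 0.119 in edgeR.

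A further relative, miR-2285aj-5p, aligns with miR-2285cp with at most 1 mismatch and ran from 3.15 to 6.39 CPM against 3.33, 2.51, 2.59 and 2.44 CPM. Only replicate 1 of sire C201000050 overlapped the other family. Its log2 fold change was -0.85 (SE 0.24, adjusted p-value 0.109). Most members of both families did not pass. miR-2284x, the most abundant miR-2284 miRNA, had a log2 fold change of -0.01 (SE 0.10), and 6 of 13 tested miR-2284 miRNAs and 26 of 48 miR-2285 miRNAs had positive values. At an unadjusted p-value under 0.05, 0 miR-2284 miRNAs were higher and 1 lower, and 3 miR-2285 miRNAs were higher and 2 lower, where 9.87% of all miRNAs were higher and 3.54% lower. Without replicate 2, 1 miR-2284 miRNA was higher and 2 lower, and 0 miR-2285 miRNAs were higher and 3 lower, where 11 of all 394 miRNAs were higher and 14 lower. Among the 7 tested miRNAs with the seed of miR-2284c, the other 6 had unadjusted p-values of 0.324 or more.

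miR-10b and its relatives belong to the miR-10 to miR-125 group, whose genes lie beside HOX genes or let-7 genes. miR-10b was 1666 to 3778 CPM with a median of 1994 CPM in the sire C199401469 family and 3424, 53030, 2050 and 1869 CPM in the sire C201000050 family. The family difference rested on replicate 2, since the other 3 steers lay within the range of sire C199401469. The log2 fold change was 2.75 (SE 0.66, adjusted p-value 0.045 in edgeR) with that library and 0.10 (SE 0.23, adjusted p-value 0.978) without it. The exact permutation p over all 12 steers was 0.23. Of the 8 miRNAs of this group, 5 were higher at an unadjusted p-value under 0.05 with all 12 steers and 0 without replicate 2, and the median log2 fold change went from 0.80 to 0.11. Over all miRNAs the counts were 39 of 395 (9.87%) and 11 of 394.

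Replicate 2 was also high for miR-143 among the mesenchymal miRNAs. miR-143, a miRNA of smooth muscle and stellate cells and the second most abundant miRNA here, was 387200 CPM in replicate 2, against 128700 to 175000 CPM in the other 11 steers. The mesenchymal markers miR-143, miR-145, miR-199a-5p and miR-214 summed to 388100 CPM in this steer and to 129100 to 175700 CPM in the sire C199401469 family. This sum was almost wholly miR-143. In replicate 2 miR-145 was 641 CPM and miR-214 was 45.1 CPM, both the highest of the 12 steers, whereas miR-199a-5p was 221 CPM, the lowest of its family and within the range of the other. Between the families miR-199a-5p had a log2 fold change of 0.08 (SE 0.14) and miR-214 one of 0.06 (SE 0.16). Of 13 stellate and mesenchymal miRNAs, 5 were higher at an unadjusted p-value under 0.05 with the library and 0 without it. Of all miRNAs, 9.87% were higher with it and 11 of 394 without it. miR-99a-5p and miR-100, which differ from each other by 1 base, were 3826 and 19600 CPM in replicate 2, and 947 to 1053 CPM and 5657 to 5785 CPM in the other steers of that sire.

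**Figure D3:**
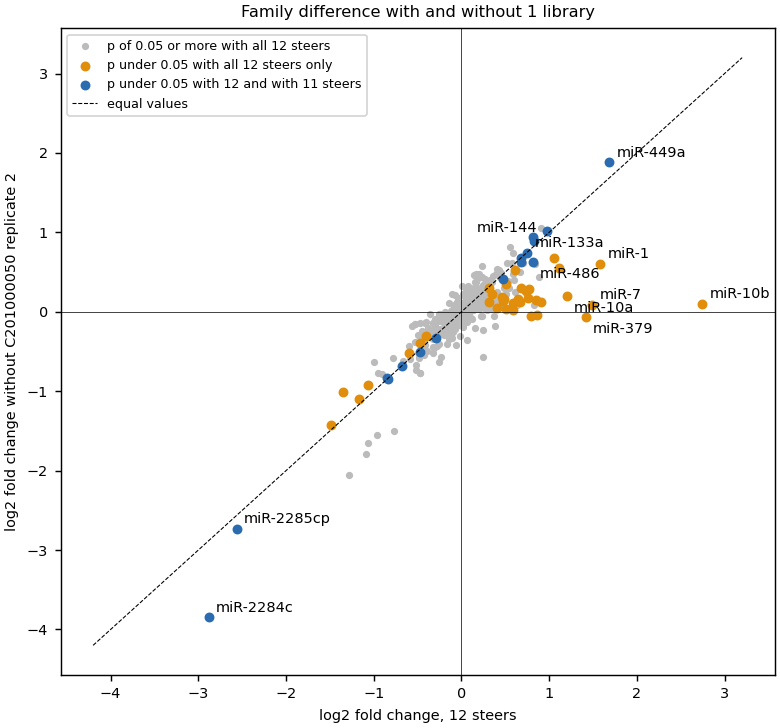
Each point is 1 miRNA, with its log2 fold change in the 12 steers on the horizontal axis and the value without sire C201000050 replicate 2 on the vertical axis. miR-10b moves from 2.75 to 0.10, whereas miR-133a, miR-144 and miR-2285cp stay near the dashed line of equal values.

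Several miRNAs of moderate level had negative log2 fold changes that replicate 2 did not decide, and none of them passed at an adjusted p-value under 0.05 in edgeR's quasi-likelihood test, although DESeq2 called miR-152 with and without that library. miR-152, which shares its seed with miR-148a and lies in COPZ2, was 236 to 284 CPM with a median of 255 CPM against 211.5, 220.3, 210.8 and 207 CPM. With TMM scaling the families did not overlap, and the 4 steers of sire C201000050 lay close together. With library totals only, replicate 2 was 146 CPM, and replicate 4 at 230.8 CPM met the lowest steer of the other family at 230.7 CPM. The difference was small, a log2 fold change of -0.29 (SE 0.10, adjusted p-value 0.232, exact permutation p = 0.00404), and without replicate 2 it was -0.32 (SE 0.12). miR-148a itself, with a mean of 123950 ± 8999 CPM (SD, n = 8) against 119910 ± 5237 CPM (SD, n = 4), had a log2 fold change of -0.05 (SE 0.09).

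miR-10164-3p also did not overlap, at 3.55 to 9.04 CPM against 2.82, 3.01, 3.1 and 3.55 CPM, although its nearest steers were almost equal. Its log2 fold change was -0.84 (SE 0.24, adjusted p-value 0.128). miR-375, a miRNA of pancreatic islet and other endocrine cells that limits insulin secretion, was 52.3 to 154.9 CPM with a median of 82.2 CPM against 54, 53.6, 51.2 and 62.1 CPM. The sire C201000050 steers lay at the bottom of the range of the other family. The log2 fold change was -0.67 (SE 0.23, adjusted p-value 0.21) and -0.68 (SE 0.26) without replicate 2. miR-128, which is abundant in brain, had a log2 fold change of -0.47 (SE 0.18, adjusted p-value 0.263).

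miR-33a and miR-33b lie in SREBF2 and SREBF1, genes that drive cholesterol and fatty acid synthesis, share a seed, and limit the export of cholesterol. miR-33a was 5.04 to 11.2 CPM against 5.38, 4.26, 4.66 and 6.88 CPM, and miR-33b was 26.9 to 47.5 CPM against 30, 21.1, 29 and 31.1 CPM. The families overlapped for both. The log2 fold changes were -0.60 (SE 0.24) and -0.41 (SE 0.19), with adjusted p-values of 0.324 and 0.355. Without replicate 2 they were -0.52 (SE 0.26) and -0.31 (SE 0.19), and neither had an unadjusted p-value under 0.05. Of 21 miRNAs with known targets in lipid handling, 3 were lower at an unadjusted p-value under 0.05 and 0 higher, where 3.54% of all miRNAs were lower and 9.87% higher. Without replicate 2 the count was 1 lower and 0 higher, where 14 of all 394 miRNAs were lower and 11 higher. The 3 were miR-152, miR-33a and miR-33b, and the list median was -0.05.

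A pair of miRNAs with large fold changes was scarce. miR-449a, a miRNA of ciliated epithelium in an intron of CDC20B, was 0.801 to 2.59 CPM against 2.05, 2.51, 12.2 and 1.77 CPM. The value of 12.2 CPM came from sire C201000050 replicate 3 alone, and the log2 fold change was 1.69 (SE 0.52, adjusted p-value 0.196). miR-2419-3p had 0 counts in 6 of the 8 steers of sire C199401469 and 4 and 6 counts in the other 2, against 2, 7, 13 and 13 counts in the sire C201000050 family. The pooled counts of 10 and 35 give a ratio of rates of 6.48 with an exact 95% interval of 3.14 to 14.7, which covers counting error only and not the spread between steers. It met the filter through replicates 2, 3 and 4 of sire C201000050 (1.163, 3.516 and 3.215 CPM of the library total) and replicate 5 of sire C199401469 (1.097 CPM). The filter thus favoured this direction, and neither the interval nor the p-value allows for it. Its adjusted p-value in edgeR was 0.102, and without replicate 2 it no longer reached 1 CPM in 4 steers.

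No hepatocyte miRNA passed. Of 11 tested, 0 had an unadjusted p-value under 0.05, where 13.4% of all miRNAs did, and the median log2 fold change was -0.05. miR-192, the most abundant miRNA in these libraries, had a mean of 239210 ± 34575 CPM (SD, n = 8) against 225360 ± 24326 CPM (SD, n = 4), a log2 fold change of -0.09 (SE 0.13). Endothelial miR-126-5p had a log2 fold change of 0.00 (SE 0.09). Of 6 biliary epithelial miRNAs, 1 was lower at an unadjusted p-value under 0.05, where 3.54% of all miRNAs were lower. It was miR-200a, at 31.5 to 66 CPM against 37.9, 25.3, 28.2 and 37.1 CPM, with a log2 fold change of -0.47 (SE 0.20, adjusted p-value 0.334). Without replicate 2 its log2 fold change was -0.40 (unadjusted p-value 0.0756 in edgeR), and 0 of the 6 were lower. The biliary markers summed to 178 to 326 CPM and 193 to 276 CPM.

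Of the remaining lists, none had a member at an adjusted p-value under 0.05 in edgeR's quasi-likelihood test, although the likelihood-ratio test without replicate 2 called miR-449a. The 9 let-7 and miR-98 miRNAs, which restrain cell division, had 8 negative values and a median log2 fold change of -0.16, with 0 at an unadjusted p-value under 0.05 and let-7f at -0.17 (SE 0.11). The counts at that threshold were 0 of 13 for miR-17-92 and its paralogues, 0 of 5 for miR-29, 0 of 5 for miR-424 and miR-450, 0 of 2 for endothelial miRNAs, and 1 of 6, higher, for miR-30. Over all tested miRNAs 9.87% were higher and 3.54% lower, and several of the lists in this paragraph lay near these shares. Among 9 leukocyte miRNAs 1 was higher, miR-146b, whose log2 fold change of 0.80 (SE 0.34) was -0.05 (SE 0.20) without replicate 2. Of 8 neural and endocrine miRNAs 1 was higher, miR-7, whose log2 fold change of 1.49 was 0.09 without replicate 2, and 2 were lower. Of 4 miR-181 miRNAs 2 were higher. Among cattle miRNAs numbered next after the miR-2285 family 1 of 25 was higher, and among those with the highest numbers 2 of 14 were higher and 1 lower. Of the 3 tested miR-34 and miR-449 miRNAs 1 was higher, miR-449a. Without replicate 2, 0 leukocyte, neural and endocrine, miR-30, miR-181 and highest-numbered cattle miRNAs were higher at that threshold, while 2 neural and endocrine, 1 miR-181 and 1 let-7 and miR-98 miRNA were lower. Of all 394 miRNAs, 11 were then higher and 14 lower. miR-449a was higher in both.

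**Figure D4:**
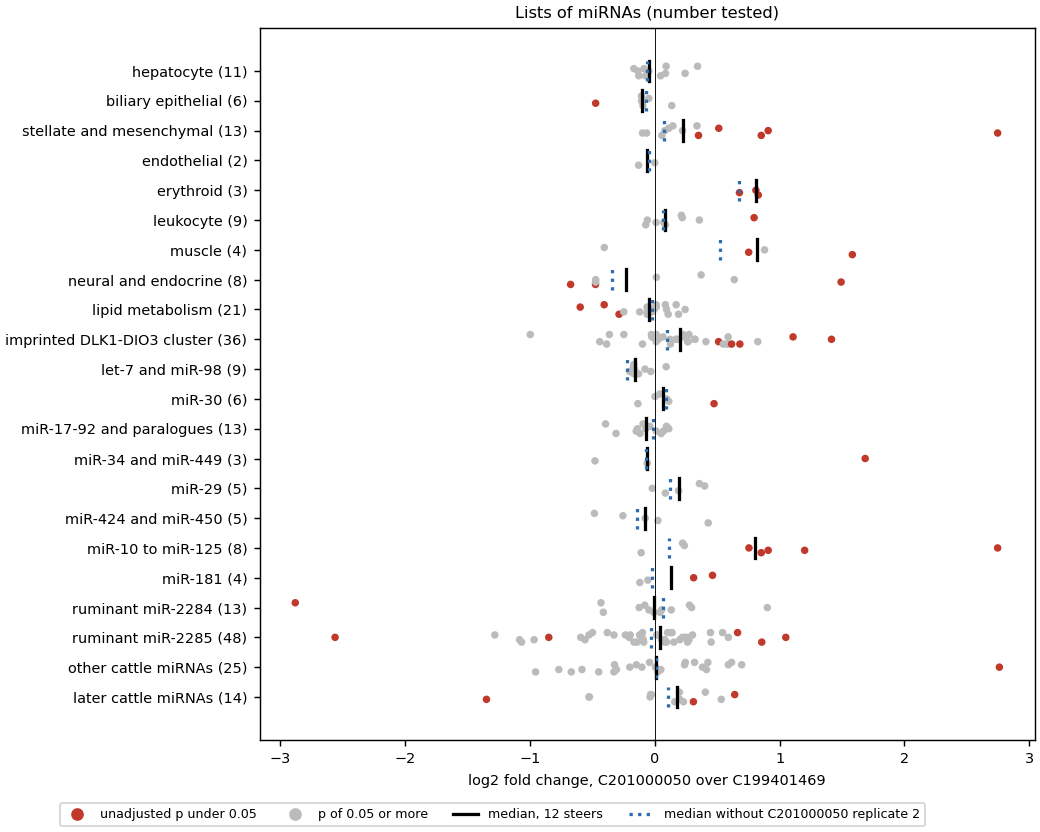
Each point is the log2 fold change of 1 miRNA between the families, in rows by list with the number tested, and red points have an unadjusted p-value under 0.05. Solid bars are list medians with 12 steers and dotted bars without sire C201000050 replicate 2, which moves the miR-10 to miR-125 median from 0.80 to 0.11 and the erythroid one from 0.81 to 0.68.

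By the correlation of their miRNA levels, steers of different families were about as alike as steers of 1 family. Pearson's r of log2 CPM over the 395 miRNAs, a description across miRNAs and not across replicates, had a median of 0.989 between steers of sire C199401469, 0.983 between steers of sire C201000050 and 0.987 between steers of different families. Without sire C201000050 replicate 2 the last 2 medians were 0.9885 and 0.9874. Since r spans miRNAs of widely different level, it was 0.960 or more for every pair and could hardly show a family difference. The median standard deviation of a miRNA on the log2 scale was 0.36 within the sire C199401469 family, 0.39 within the sire C201000050 family and 0.28 in the latter without replicate 2.

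Set beside the other 8 Charolais steers, which come from 3 further sires, each family gave 0 of 419 miRNAs at an adjusted p-value under 0.05 in edgeR. The unadjusted p-value was under 0.05 for 44 (10.5%) in the sire C199401469 comparison and for 40 (9.55%) in that of sire C201000050. These comparisons share the 8 steers, so their values are given side by side. All values of the sire C201000050 family against these 8 steers include replicate 2. With edgeR's likelihood-ratio test 5 and 1 miRNAs passed. For miR-486 the log2 fold change against the other 8 steers was -0.48 in the sire C199401469 family (adjusted p-value 0.275) and 0.33 in the sire C201000050 family (adjusted p-value 0.599). For miR-133a the values were -0.14 (adjusted p-value 0.767) and 0.61 (adjusted p-value 0.467). For miR-495 they were -0.67 (adjusted p-value 0.0583) and 0.01 (adjusted p-value 0.965).

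Other members of the imprinted cluster were set against the other 8 steers in the same way. miR-127 had -0.65 in the sire C199401469 family (adjusted p-value 0.139) and -0.14 in the sire C201000050 family, and miR-409a had -0.98 (adjusted p-value 0.167) and 0.11. The median of the 36 members was -0.45 and -0.29, against -0.02 and -0.01 over all tested miRNAs. For miR-2284c the values were 0.62 (adjusted p-value 0.62) and -2.26 (adjusted p-value 0.467).

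Scaled over all 60 steers, miR-486 had a median of 4974 CPM in the sire C199401469 family, 8906 CPM in the sire C201000050 family, 6628 CPM in the other Charolais, 7162 CPM in Angus and 7034 CPM in KC steers. The other 8 Charolais ran from 3170 to 10680 CPM and so covered both families. miR-133a had medians of 29.9 and 50.3 CPM in the 2 families and of 32.5, 33.2 and 37.3 CPM in the other Charolais, Angus and KC steers. The highest of all 60 steers for miR-133a, at 55.6 CPM, was a steer of sire C201000050. miR-495 had medians of 7.58 and 11.8 CPM in the families and of 10.2, 9.63 and 7.32 CPM in the others. The level of miR-10b in sire C201000050 replicate 2 was 50200 CPM on this scale, and the highest of the other 59 steers was 6948 CPM.

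**Figure D5:**
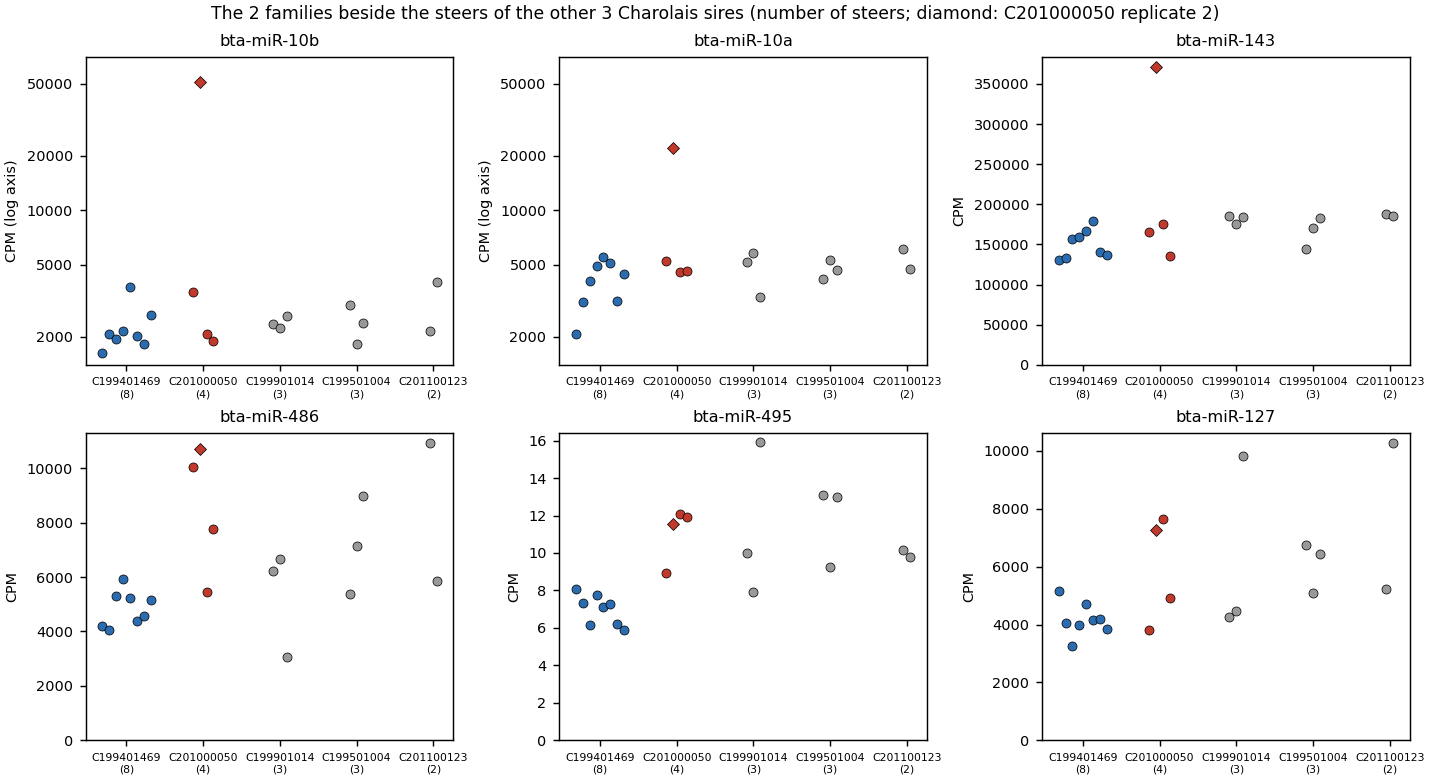
Points are the CPM of each of the 20 Charolais steers by sire, scaled over these 20, with a log axis for miR-10b and miR-10a and axes from 0 for the rest. The diamond, sire C201000050 replicate 2, stands alone for miR-10b, miR-10a and miR-143, while the blue points of sire C199401469 lie low for miR-495 and miR-127.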

How the data were processed

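Liver small RNA libraries of 12 Charolais steers were compared, 8 of sire C199401469 and 4 of sire C201000050, grouped by the sire label, with the other 48 steers of the series used for context only. Per the labels and the study's methods, the authors trimmed reads with cutadapt 1.16, kept lengths of 15 to 28 bases, removed reads of other small RNAs, mapped with bowtie 1.1.1 to UMD3.1 and quantified known bovine miRNAs with miRDeep2. The deposited values are raw counts per pair of mature miRNA and precursor, without normalization. Reads that fit several near-identical miRNAs may be counted for each.

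Where a mature miRNA had several precursors, its counts were averaged, following the authors, and then rounded for the tests. Tests covered miRNAs reaching 1 CPM in 4 or more of the 12 steers and used edgeR 4.0.16 (limma 3.58.1, R 4.3.3), with TMM normalization and the quasi-likelihood F test with Benjamini-Hochberg adjustment. Log2 fold changes are sire C201000050 over sire C199401469. The call rule was an adjusted p-value under 0.05, with the study's unadjusted p-value under 0.05 and fold change above 1.5 beside it. Each family was also set against the other 8 Charolais steers in 1 fit of 20 steers. Single miRNAs were tested by exact two-sided permutation of mean log2(CPM + 0.5) with scipy 1.17.1, and lists were described without a test. The procedure was tested on simulated data. Replicate numbers only name steers, and p-values measure the spread between steers of 1 sire each.

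Named are the 12 miRNAs with the smallest p-value, up to 4 members of each list with an unadjusted p-value under 0.05 (otherwise its most abundant member), and the 5 most abundant miRNAs. A few others (miR-122, miR-885, miR-133b, miR-490, miR-2284x, miR-199a-5p, miR-214 and those called only by an alternative test) were named after their values were seen. The members and lists were chosen with earlier results of these data known. Alternatives covered the test, with DESeq2 1.42.0 among them, normalization, filter, precursors, RFI group, samples and depth. Fits with limma voom, and some without sire C201000050 replicate 2, were added after that library was seen to stand apart. Sequencing pools are not in the labels, and coordinates are not given because the reference table is of another build. Predicted miRNAs were not analysed here.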

Additional observations from a re-analysis of the deposited data

Results flagged for a closer look

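Each family was searched for a steer far from the rest of its family in each of the 45 named miRNAs, which is 90 groups, and 20 were found. The rule flags about 1 in 20 groups by chance where groups are independent and not selected. Here many miRNAs were named for a small p-value that replicate 2 of sire C201000050 affected, and the groups share steers. The number found therefore cannot be weighed against that rate. Of the 20, 12 were the library of sire C201000050 replicate 2, 4 were other steers of that sire and 4 were steers of sire C199401469.

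In sire C201000050 replicate 2, miR-10b was 53030 CPM (next steer of the family 3424), miR-10a 23010 CPM (5108), miR-100 19600 CPM (5785), miR-99a-5p 3826 CPM (1053), miR-143 387200 CPM (173200) and miR-26a 103800 CPM (52850). miR-146b was 911.4 CPM there (259.1), miR-379 113.6 CPM (21.2), miR-7 78.5 CPM (14.1), miR-2285k 235.6 CPM (97.3), miR-181c 158.9 CPM (110.4) and miR-181d 26.3 CPM (15.3). All 12 were high values in 1 library whose TMM factor was 0.663. The cause was not tested.

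Other steers of sire C201000050 stood apart for miR-449a (replicate 3, 12.2 CPM, next 2.51), miR-495 (replicate 1, 8.71 CPM, next 11.8), miR-2285aj-5p (replicate 1, 3.33 CPM, next 2.59) and miR-2285cp (replicate 3, 0 CPM). The last is a gap of 1 count, since the other steers of that sire had 1 count each, and lies under the floor of 3 counts. In the sire C199401469 family 1 steer stood apart for miR-12001 (replicate 1, 15.3 CPM, next 4.61), miR-144 (replicate 8, 22.3 CPM, next 16.4), miR-2285bf (replicate 3, 2.37 CPM, next 1.20) and miR-26a (replicate 5, 65700 CPM, next 52380).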

How the results depend on the processing

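The 7 miRNAs at an adjusted p-value under 0.05 lay close to the threshold, and the next adjusted p-value was 0.102. The count was 10 with edgeR's likelihood-ratio test, 5 with DESeq2 and with limma voom, and 7 with counts summed over precursors, but 4 with library totals only, 3 with at least 10 counts in each steer, 2 without a filter on low counts, 2 after thinning to equal depth, 1 with all 20 Charolais steers in 1 fit (miR-10b), and 0 with RLE size factors, with RFI group as a term and without high-RFI steers. Leaving out 1 steer gave 0 to 3, with 3 without sire C199401469 replicate 1 and without sire C201000050 replicate 3 and 0 without any of the other 10, so each steer changed the count by over 1.5 times. The 39 miRNAs that passed the study's own rule became 19 with at least 10 counts in each steer, 23 with limma voom and 16 to 46 on leaving out 1 steer, the lowest without sire C201000050 replicate 2. With RFI group as a term, miR-486 had a log2 fold change of 0.97 (SE 0.19, adjusted p-value 0.0787) and miR-133a one of 0.64 (SE 0.22, adjusted p-value 0.163). In the same fit miR-2284c had one of -2.06 (SE 0.73) and miR-2285cp one of -2.04 (SE 0.71), each with an adjusted p-value of 0.163. Without high-RFI steers neither of these was tested. The study lists miR-133a, miR-449a, miR-2284c and miR-12001 among the miRNAs that differed with RFI in Charolais. By sequencing it reports miR-449a higher and the other 3 lower in low-RFI steers, though its qPCR table prints an increase for miR-133a. In the sire C201000050 family, which has low-RFI and no high-RFI steers, miR-133a and miR-449a were higher and miR-2284c and miR-12001 lower. The part of RFI in these differences was not tested. miR-486 was called in 7 of 12 alternatives other than leaving out a steer, and the adjusted p-values of the 7 over all alternatives ran from 0.00205 to 0.978. Each of the 7 kept its direction wherever it was tested. Relative to the median of all miRNAs, which library totals moved by -0.12, the log2 fold change of miR-486 was 0.80 with TMM and 0.74 with totals. Against the other 8 Charolais steers, the likelihood-ratio test called 5 miRNAs for sire C199401469 and 1 for sire C201000050 in place of 0 and 0. Of 1060 values of named miRNAs, 18 turned direction, and the values after turning were between -0.118 and 0.0273. For miR-126-5p these were -0.0127 with DESeq2 and with RLE factors, -0.0083 with no filter, -0.118 with totals, -0.0022 with at least 10 counts, -0.0387 with RFI group and -0.0221 without high-RFI steers, with -0.0772 to 0.0341 on leaving out 1 steer. For miR-29a it was -0.0062 with totals, and for miR-192 0.0273 with RFI group and 0.0178 without high-RFI steers. On leaving out 1 steer, miR-146b ran from -0.0484 to 1.05 and miR-379 from -0.0624 to 1.74, both lowest without sire C201000050 replicate 2. The causes were not tested. No paired analysis was possible because replicate numbers only name steers. Depth limits miR-2284c, miR-2285cp and miR-2419-3p, which had at most 13 counts in any steer.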
